A study of Mus musculus with 7 samples.

Results

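The genes examined were 9 genes that define the B-cell lineage, Pax5, Ebf1, Cd79a, Cd79b, Vpreb3, Blk, Ms4a1, Cd22 and Cd40, read by gene name from RNA sequencing libraries of mouse T-cells. All 9 were among the 25033 genes listed in each library, and all 9 passed the filter for low counts that left 13462 genes for testing. The libraries came from 3 wild-type (WT) and 4 ORP4L knock-in (KI) C57BL/6J mice, 1 library per mouse, all labelled as T-cells and all 15 months old. In ORP4L KI mice the human ORP4L coding sequence, tagged with 3xFlag and followed by IRES-EGFP, sits in the Rosa26 locus under a CAG promoter and is released by Lck-Cre, a recombinase driven by a T-cell promoter. Per the methods of the study, the WT mice were littermates, the KI mice were studied when moribund, and T-cells were isolated from blood mononuclear cells or from spleen. CD4+ cells were further purified there with a kit for naive CD4+ T-cells, a selection meant to remove other cell types, but it was not stated whether this applied to the sequenced libraries. The source of each library was not stated, nor was it stated whether the cells were cultured before RNA was made, so these cannot be told apart from genotype or from mouse.

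B-cells are built by a small circuit of transcription factors. EBF1 switches on PAX5, and PAX5 holds the cell in the B lineage by activating B-cell genes and silencing those of other lineages. The program includes CD79A and CD79B, the signaling chains that carry the B-cell receptor to the surface, the kinase BLK, the co-receptors CD20 (encoded by Ms4a1) and CD22, and the precursor B-cell protein VPREB3. CD40 is the receptor through which a B-cell receives help from T-cells that carry CD40 ligand, and dendritic cells and macrophages carry it too. T-cells are known to keep most of this program silent. In bulk RNA, fewer B-cells and less RNA per B-cell cannot be told apart.

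Total counts ranged from 12918187 to 15912921 in WT and from 16757959 to 19665679 in ORP4L KI. The mouse gene of ORP4L, Osbp2, had 0, 0 and 1 counts in WT and 155 to 742 counts in ORP4L KI, which matched the labels, although reads of the human insert and of the mouse gene cannot be separated in these counts. The T-cell label was checked with Cd3e, a chain of the T-cell receptor complex, which lay between 115 and 176 CPM (counts scaled to library size by TMM) in WT and between 117 and 245 in ORP4L KI. Cd4 lay between 257 and 360 CPM in WT and between 93.4 and 415 in ORP4L KI. Cd8a, a gene of CD8+ T-cells, lay between 124 and 179 CPM in WT and between 79.6 and 226 in ORP4L KI. The sum of 17 T-cell markers took 0.322% to 0.533% of the counts in WT and 0.424% to 0.650% in ORP4L KI replicates 2, 3 and 4. ORP4L KI replicate 1 stood apart, with 0.169% of its counts in T-cell markers and 12.2% in 14 granulocyte markers. Its 10 highest genes took 14.27% of its counts, against 5.23% to 7.96% in the other libraries. Most of the 17 T-cell markers were lower in this library than in every WT library, such as Cd3g at 143 CPM against 257 to 370. Cd3d, Cd3e and Cd28 were not.

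**Figure D1:**
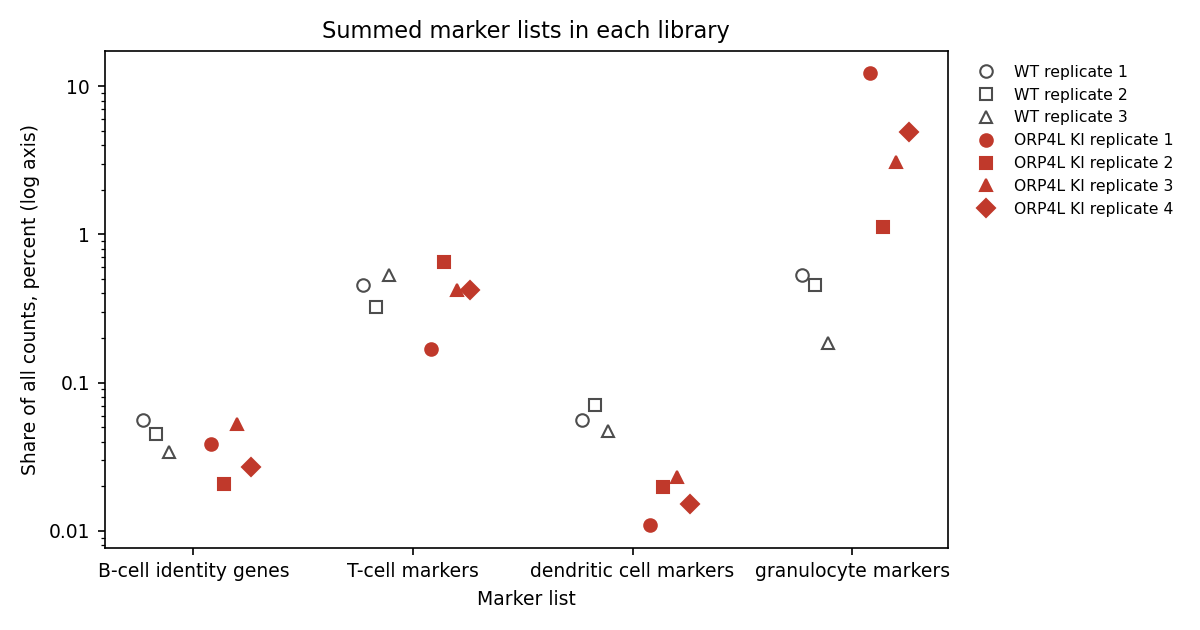
Share of all counts, in percent on a log axis, taken by the 9 B-cell identity genes, 17 T-cell markers, 9 dendritic cell markers and 14 granulocyte markers. Each point is 1 library, with open grey symbols for WT and filled red symbols for ORP4L KI. The B-cell genes overlapped between the groups, from 0.0342% to 0.0564% in WT and from 0.0206% to 0.0531% in ORP4L KI, whereas dendritic cell markers were lower and granulocyte markers higher in all 4 ORP4L KI libraries.

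The 9 genes were detected in every library, with between 16 and 2660 counts per gene. As a group they did not separate the genotypes. All 9 had a lower mean CPM in ORP4L KI, with a median log2 fold change of -0.29 beside 0.01 for all genes tested, but in none of the 9 did the groups fail to overlap, where 13.8% of all genes tested had groups that did not overlap and 7.38% were lower without overlap. At a Benjamini-Hochberg adjusted p under 0.05 in edgeR's quasi-likelihood test, 0 of the 9 passed, beside 0.0223% of all genes in either direction and 0.0149% that were lower. A looser rule asked for p under 0.01 before adjustment together with a log2 fold change over 1 in size. By it 1 of the 9 passed, Cd40, which was lower, beside 4.68% of all genes in either direction and 2.3% that were lower. Only Cd40, 1 of the 9, had an unadjusted p under 0.05 in the fit of all 7 libraries, beside 13.7% of all genes. Without ORP4L KI replicate 1 Vpreb3 had one too, beside 1815 of the 13338 genes tested in that fit. DESeq2's Wald test and edgeR's likelihood ratio test each called Cd40 at an adjusted p under 0.05, and none of the other 8, beside 784 and 706 calls among all genes.

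**Figure D2:**
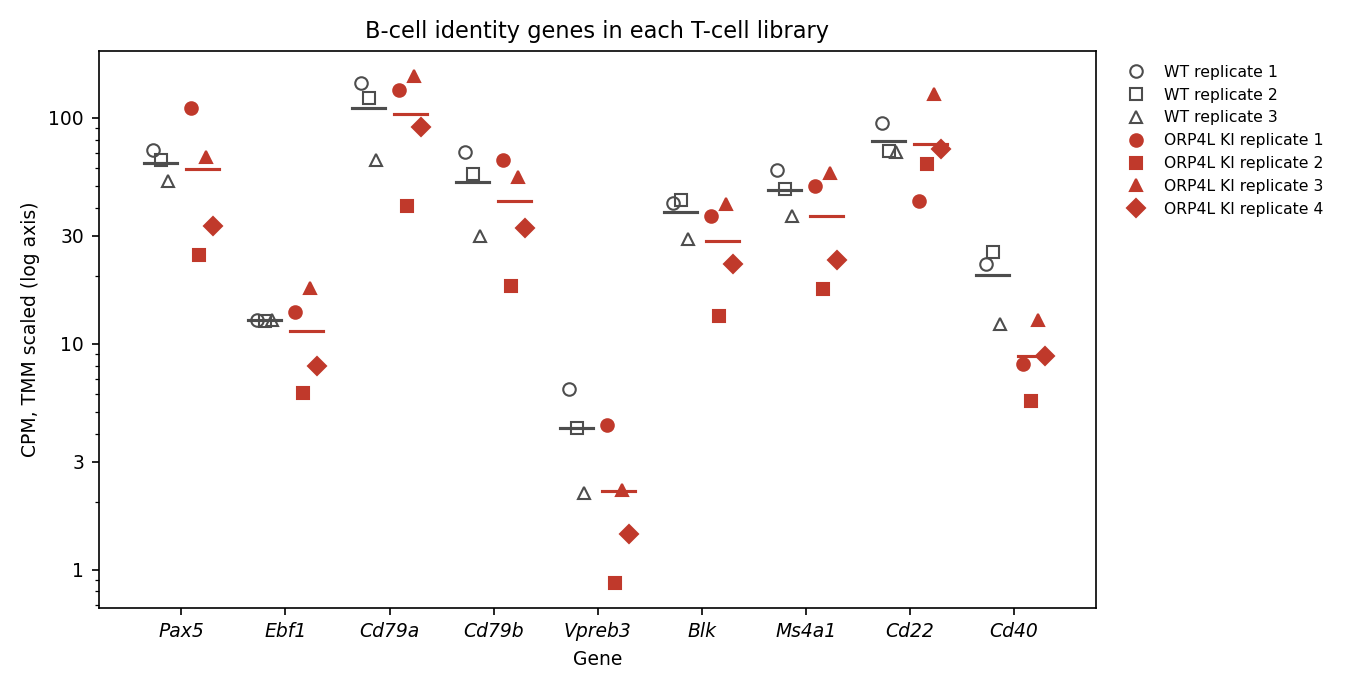
Level of each of the 9 B-cell identity genes in CPM, scaled by TMM, on a log axis. Each point is 1 mouse, open grey for WT and filled red for ORP4L KI, and horizontal lines are group means. ORP4L KI replicate 2, the filled square, was the lowest library for 8 of the 9 genes, and for Cd40 3 of the 4 ORP4L KI libraries lay below all WT libraries.

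Pax5 encodes the factor that commits cells to the B lineage. It lies on chromosome 4 (GRCm38.p6, chr4:44524748-44710694). Pax5 stood at 72.1, 64.6 and 52.2 CPM in WT replicates 1, 2 and 3 and at 110.9, 24.7, 67.3 and 33.1 CPM in ORP4L KI replicates 1, 2, 3 and 4. The ORP4L KI libraries held both the highest and the lowest value of the 7, so the groups overlapped, with a 4.49-fold range in ORP4L KI and a 1.38-fold range in WT. The log2 fold change was -0.10 (SE 0.46, 95% interval -1.12 to 0.93), with an adjusted p of 0.960 in edgeR's quasi-likelihood test. The interval therefore takes in a change of 1 log2 unit downward and nearly as much upward. Without ORP4L KI replicate 1 it was -0.60, and without replicate 2 it was 0.15.

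Ebf1 encodes the factor that acts before Pax5 in B-cell development (chr11:44618100-45008096). Ebf1 was nearly the same in the 3 WT mice, at 12.7, 12.6 and 12.8 CPM, and spread from 6.03 to 17.6 CPM in ORP4L KI, with 13.8, 6.03, 17.6 and 7.96 CPM in replicates 1 to 4. Of the ORP4L KI libraries, 2 lay above all WT libraries and 2 lay below them. The log2 fold change was -0.16 (SE 0.36, 95% interval -0.96 to 0.64), with an adjusted p of 0.908 in the same edgeR test.

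The promoter stretches that RefSeq (GRCm38.p6) gives for 5 of the 9 genes were searched for motifs of factors known in B-cells. They are shown, without bases that GENCODE vM21 places in an exon, for Pax5, the head of the program, for Cd79a and Vpreb3, which moved with it, and for Cd22, which did not. Each is written 5′ to 3′ on the strand of the gene and ends at or before the base in front of the annotated start. Capitals mark matches to an EBF1 core (CCCNNGGG), an octamer bound by OCT factors (ATTTGCAT) or a PU.1 and ETS core (GAGGAA), searched on both strands in the 250 bases before the start.
Pax5, chr4:44710695-44710944, minus strand, outside annotated genes: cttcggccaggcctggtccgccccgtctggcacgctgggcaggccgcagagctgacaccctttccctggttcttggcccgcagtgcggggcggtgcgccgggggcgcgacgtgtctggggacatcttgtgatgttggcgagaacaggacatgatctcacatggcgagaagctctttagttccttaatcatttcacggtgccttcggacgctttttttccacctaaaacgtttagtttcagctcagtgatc
Cd79a, chr7:24897247-24897380, plus strand, in front of the first annotated exon: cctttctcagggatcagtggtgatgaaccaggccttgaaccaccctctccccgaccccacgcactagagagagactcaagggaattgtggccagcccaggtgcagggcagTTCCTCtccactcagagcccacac
Cd22, chr7:30879029-30879176, minus strand, in an intron of longer Cd22 transcripts: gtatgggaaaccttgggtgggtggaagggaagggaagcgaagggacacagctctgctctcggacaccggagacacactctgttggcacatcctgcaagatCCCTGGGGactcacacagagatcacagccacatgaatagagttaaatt
Vpreb3, chr10:75948050-75948299, plus strand, in an intron of a longer Vpreb3 transcript: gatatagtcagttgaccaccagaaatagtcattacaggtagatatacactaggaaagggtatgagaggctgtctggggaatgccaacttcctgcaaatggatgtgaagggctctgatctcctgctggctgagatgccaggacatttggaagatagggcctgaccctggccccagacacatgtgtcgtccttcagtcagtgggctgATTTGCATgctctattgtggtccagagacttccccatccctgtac

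The Cd22 stretch held the EBF1 core 48 to 41 bases before the start, and 11.8% of the 32851 mouse promoters of the same length held 1 too. The octamer stood 45 to 38 bases before the start of Vpreb3, a motif found in 1.6% of all promoters. A PU.1 and ETS core, present in 23.3% of all promoters, was found in Cd79a on the opposite strand, 140 to 135 bases before the start, and in 1 of the 2 Ebf1 promoters. None of the 3 motifs was found in the 250 bases before Pax5. These matches describe the letters in the windows and were not tied to binding. Promoter sequences of Ms4a1, Cd79b, Blk and Cd40 were not analysed here.

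Cd79a and Cd79b encode the pair of chains that signal for the B-cell receptor (chr7:24897497-24901858 and chr11:106311341-106314562). Cd79a stood at 142.2, 122.7 and 64.8 CPM in WT replicates 1 to 3 and at 132.2, 40.7, 152.8 and 90.9 CPM in ORP4L KI replicates 1 to 4. Cd79b stood at 70.1, 56.2 and 29.9 CPM in WT and at 65.0, 18.0, 54.7 and 32.6 CPM in ORP4L KI. Both were lowest in ORP4L KI replicate 2 and, within WT, in replicate 3, and the groups overlapped for both. The log2 fold changes were -0.08 (SE 0.43, adjusted p 0.964) for Cd79a and -0.29 (SE 0.43, adjusted p 0.845) for Cd79b in edgeR's quasi-likelihood test. The chains kept a narrow ratio to each other. Libraries held between 35.8 and 49.3 Cd79b counts per 100 Cd79a counts, while the Cd79a level itself ranged from 40.7 to 152.8 CPM.

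Blk encodes a Src family kinase used by the B-cell receptor (chr14:63372837-63417187). It stood at 42.1, 43.3 and 29.0 CPM in WT and at 36.5, 13.3, 41.6 and 22.4 CPM in ORP4L KI, so that 2 ORP4L KI libraries lay below all WT libraries and none above them. Its log2 fold change was -0.42 (SE 0.36, adjusted p 0.703 in edgeR's quasi-likelihood test). Vpreb3, which is related to the surrogate light chain of precursor B-cells (chr10:75943024-75949657), was the lowest of the 9 genes in counts, from 16 to 101 per library. Vpreb3 stood at 6.27, 4.21 and 2.18 CPM in WT and at 4.38, 0.876, 2.24 and 1.43 CPM in ORP4L KI. Here too the groups overlapped and the spread was wide in both. Its log2 fold change of -0.92 was second in size to that of Cd40, with an SE of 0.56, a 95% interval of -2.17 to 0.33 and an adjusted p of 0.537 in edgeR's quasi-likelihood test. It moved to -1.48 without ORP4L KI replicate 1 (adjusted p 0.208 in the same edgeR test) and to -0.52 without WT replicate 1.

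Ms4a1 encodes CD20, a surface protein of mature B-cells (chr19:11249679-11266149). It stood at 58.4, 48.2 and 36.6 CPM in WT and at 49.7, 17.4, 56.9 and 23.5 CPM in ORP4L KI. As for Pax5 and Blk, replicates 2 and 4 of ORP4L KI lay below all WT libraries while replicates 1 and 3 lay among or above them. The log2 fold change was -0.37 (SE 0.40), with an adjusted p of 0.775 in edgeR's quasi-likelihood test.

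Cd22 encodes an inhibitory receptor of B-cells that binds sialic acid (chr7:30865404-30880342), and its order of libraries was unlike that of the other genes. Cd22 stood at 94.8, 71.2 and 70.8 CPM in WT and at 42.9, 62.6, 126.7 and 72.6 CPM in ORP4L KI. It was the only one of the 9 whose lowest library was ORP4L KI replicate 1 and not replicate 2. The groups overlapped, with a log2 fold change of -0.05 (SE 0.33, adjusted p 0.968 in edgeR's quasi-likelihood test). Without ORP4L KI replicate 1 the log2 fold change of Cd22 was 0.14.

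Cd40, the receptor for CD40 ligand (chr2:165055614-165071654), was the gene of the 9 with the largest difference between the groups. Cd40 stood at 22.5, 25.4 and 12.2 CPM in WT replicates 1 to 3 and at 8.10, 5.59, 12.8 and 8.83 CPM in ORP4L KI replicates 1 to 4. ORP4L KI replicate 3 lay just above WT replicate 3, and the other 3 ORP4L KI libraries lay below every WT library. Cd40 was 2.27-fold lower in ORP4L KI by mean CPM, 8.82 ± 2.97 (SD, n = 4) against 20.04 ± 6.98 (SD, n = 3). Its log2 fold change was -1.18 (SE 0.34, 95% interval -1.94 to -0.43), with a p of 0.00611 and an adjusted p of 0.147 in edgeR's quasi-likelihood test. The 2-sided exact permutation test on the difference of mean log2 CPM, over all 35 ways to assign the 7 libraries, gave p = 0.0857. The smallest p the design allows in this test is 0.0286. The call by the looser rule was lost without WT replicate 1 or 2 and without ORP4L KI replicate 1, 2 or 4. In these the log2 fold change was -1.09, -0.98, -1.15, -1.03 and -1.19, in that order, and the adjusted p of edgeR's quasi-likelihood test lay between 0.143 and 0.491.

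**Figure D3:**
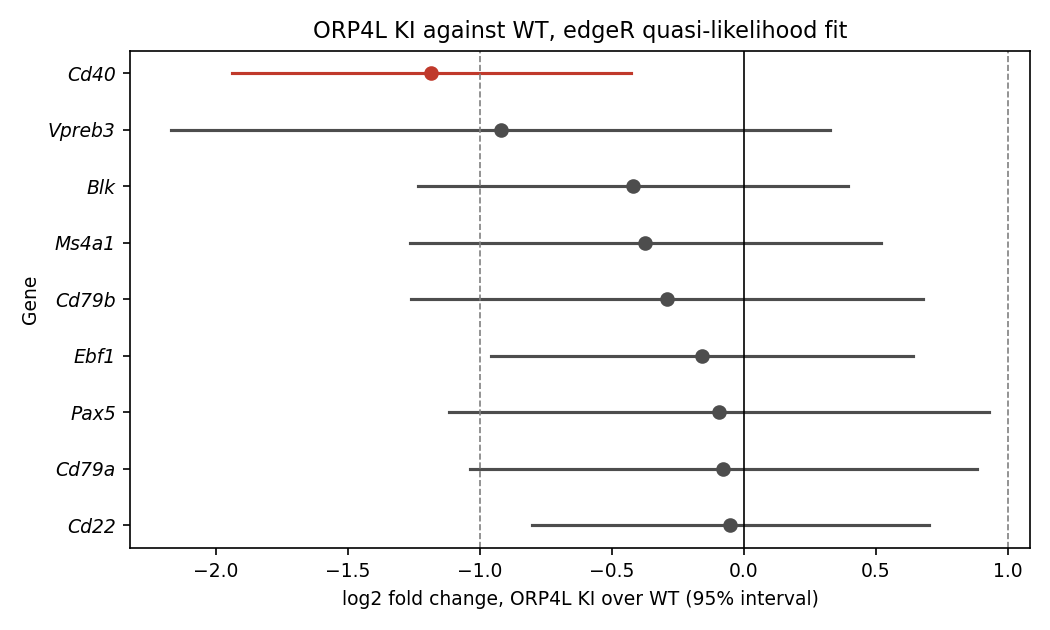
Log2 fold change of ORP4L KI over WT for each of the 9 genes (points) with 95% intervals (lines) from edgeR's quasi-likelihood fit of 4 against 3 libraries, with dashed lines at a log2 fold change of 1 in size. All 9 points lie below 0, and the interval of Cd40, in red, is the one that leaves out 0.

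Dendritic cell markers were lower in ORP4L KI too. The sum of 9 dendritic cell markers took 0.0561%, 0.0704% and 0.0476% of the counts in WT and 0.0109%, 0.0198%, 0.0230% and 0.0151% in ORP4L KI, with no overlap. Within ORP4L KI the order of the mice differed, as this share was lowest in replicate 1 and Cd40 was lowest in replicate 2. All 9 markers had a log2 fold change below 0, with a median of -1.58, and 7 of the 9 were lower by the looser rule. Their part in the Cd40 difference was not tested. Cd40 counts per 100 dendritic cell marker counts were 4.35, 3.61 and 2.82 in WT and 6.19, 3.08, 5.53 and 5.38 in ORP4L KI, so the groups overlapped on this ratio. Against Cd79a, the B-cell receptor chain, Cd40 separated the groups, with 15.9, 20.7 and 18.7 Cd40 counts per 100 Cd79a counts in WT and 6.12, 13.7, 8.35 and 9.71 in ORP4L KI. Against Ms4a1, used as the base in the same way, the groups overlapped. Monocyte and macrophage markers, which overlapped between the groups, took 0.311% to 0.472% of the counts in WT and 0.225% to 0.593% in ORP4L KI.

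The spread among mice was larger than the difference between the genotypes for most of these genes. In 8 of the 9, all except Cd40, the SD of log2 CPM was larger in ORP4L KI than in WT, from 0.48 to 0.98 in ORP4L KI over the 9 genes and from 0.012 to 0.74 in WT. ORP4L KI replicate 2 was the lowest library for 8 genes, and replicate 4 was the second lowest of ORP4L KI for 7. ORP4L KI replicate 2 also had the largest share of T-cell markers, 0.650%. Relative to T-cell markers, the summed counts of the 9 genes were 12.5, 13.9 and 6.42 per 100 in WT and 23.0, 3.17, 12.5 and 6.36 per 100 in ORP4L KI. The 2 extremes of this ratio were both ORP4L KI mice, and replicate 1, which was high in it, was also the library with the fewest T-cell marker counts. The size of the group's difference moved with single libraries. Without ORP4L KI replicate 2 the median log2 fold change of the 9 genes was -0.05, with 5 of 9 below 0. The median of all genes tested in that fit was -0.03, so little difference was left. Without ORP4L KI replicate 1 the median of the 9 genes was -0.57, with 8 of 9 below 0, beside -0.009 for all genes.

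**Figure D4:**
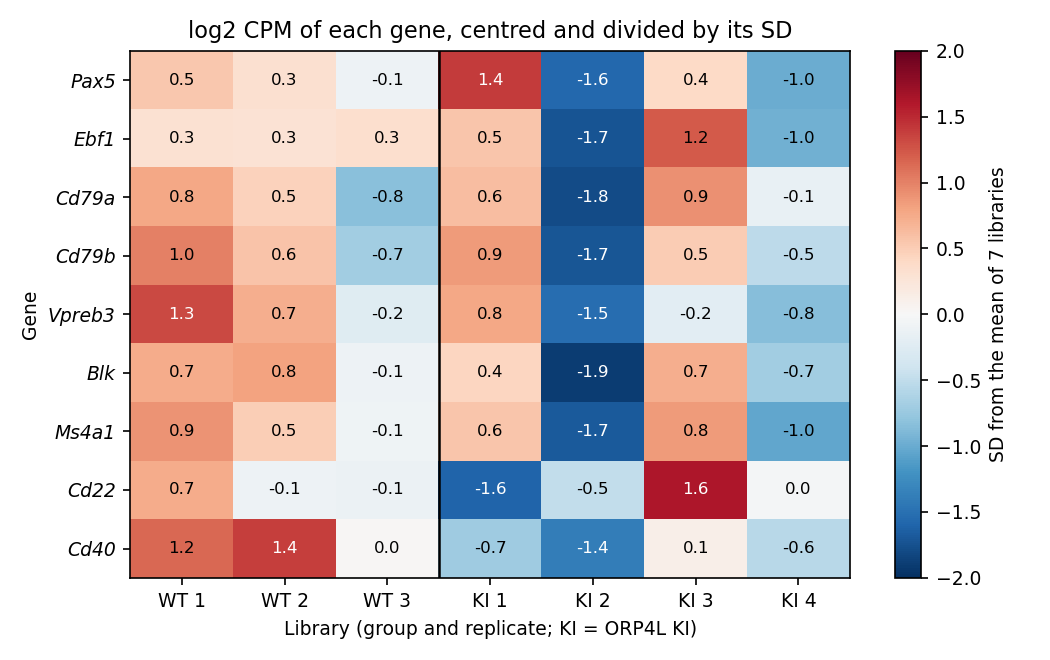
Log2 CPM of each of the 9 genes in each library, centred on the gene's mean over the 7 libraries and divided by its SD, so that 1 unit is 1 SD. Red is above and blue below the gene's mean. The column of ORP4L KI replicate 2 is below the mean for all 9 genes, and in replicate 1 Pax5 is far above and Cd22 far below.

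Most of the genes moved together from mouse to mouse, Cd22 least and Cd40 less than the rest. Over the 7 libraries, the 28 pairs that leave out Cd22 had Pearson correlations of log2 CPM from 0.478 to 0.973, with a median of 0.872. Of these, the 21 pairs without Cd40 had a median of 0.883 and the 7 with Cd40 a median of 0.673. The 8 pairs with Cd22 had correlations from -0.07 to 0.46. Spearman rank correlations of pairs without Cd22 ranged from 0.25 (Ebf1 with Cd40) to 0.96 (Cd79b with Vpreb3). Among pairs with Cd22 they reached 0.64, for Cd40. These are descriptions over 7 libraries in 2 groups, and the points share a library and its scaling. Among the 11580 genes compared with the mean pattern of the 9, those most alike included Fads1 (r = 0.961 over the 7 libraries), Ell3 (0.960), Cdk20 (0.951) and Oma1 (0.950). The least alike were Ctps2 (-0.97), Galm (-0.95), BC052040 (-0.94), Top3a (-0.94) and Stxbp4 (-0.93).

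Pax5 and Cd22 parted most in ORP4L KI replicate 1. Libraries held 76.1, 90.7 and 73.7 Pax5 counts per 100 Cd22 counts in WT and 258, 39.5, 53.1 and 45.6 in ORP4L KI. The first ORP4L KI library was thus above, and the other 3 below, every WT library. Pax5 made up 23.9% of the summed counts of the 9 genes in that library and 11.3% to 16.8% in the other 6. This ratio and the others given here were chosen after earlier results of these data were known and carry no test.

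**Figure D5:**
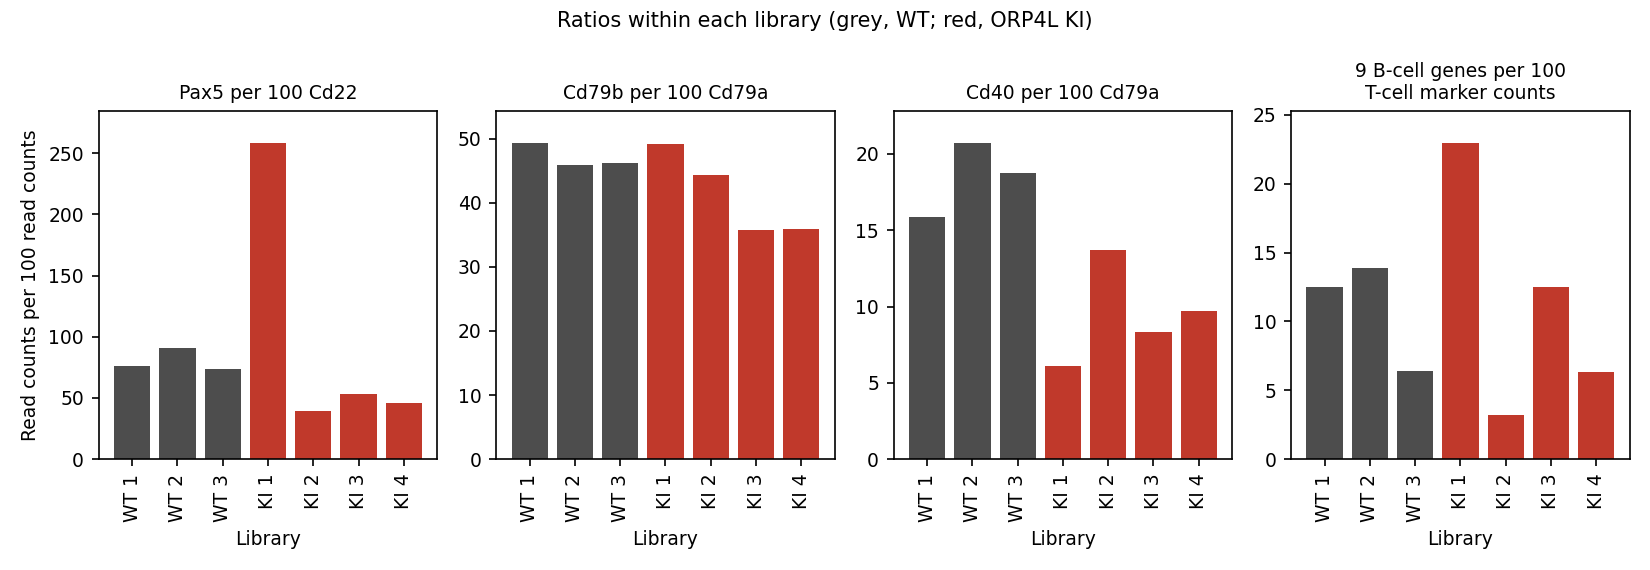
Read counts of 1 gene or list per 100 read counts of another within each library, with grey bars for WT and red bars for ORP4L KI, each axis starting at 0. Pax5 per 100 Cd22 reaches 258 in ORP4L KI replicate 1, Cd79b per 100 Cd79a stays between 35.8 and 49.3, Cd40 per 100 Cd79a is lower in all 4 ORP4L KI libraries, and the 9 genes per 100 T-cell marker counts range from 3.17 to 23.0.

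Per transcript length, the order of the genes was stable at its ends. In RPKM, the deposited unit that divides reads by transcript length and library size, Cd79a was highest and Cd79b second in all 7 libraries, and Ebf1 was lowest in all 7. Mean RPKM in WT was 116 ± 41.5 for Cd79a, 46.6 ± 18.2 for Cd79b, 20.5 ± 4.03 for Cd22, 16.97 ± 3.91 for Ms4a1, 16.2 ± 2.93 for Blk, 12.5 ± 3.95 for Cd40, 8.11 ± 1.27 for Pax5, 7.61 ± 3.76 for Vpreb3 and 2.58 ± 0.152 for Ebf1 (SD, n = 3). From Cd22 down to Vpreb3 the ranges of each pair of neighbours overlapped in WT. Compared within each library, Cd22 was above Ms4a1, Blk above Cd40 and Cd40 above Pax5 in all 3 WT libraries. Ms4a1 was above Blk, and Pax5 above Vpreb3, in 2 of the 3. In ORP4L KI the means were 97.4 ± 45.2 for Cd79a, 33.5 ± 14.9 for Cd79b, 18.1 ± 9.20 for Cd22, 11.6 ± 5.97 for Ms4a1, 10.8 ± 4.76 for Blk, 6.59 ± 3.81 for Pax5, 4.998 ± 1.77 for Cd40, 3.48 ± 2.05 for Vpreb3 and 2.06 ± 0.968 for Ebf1 (SD, n = 4), and the ranges of all neighbours overlapped. Cd22 held the third place in 5 libraries and the sixth in ORP4L KI replicate 1, where Pax5 was in the fifth place, against sixth to eighth in the other libraries. Cd40 was sixth in all 3 WT libraries and sixth to eighth in ORP4L KI.

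Other genes of the B lineage and of the pathways around these receptors were read from lists chosen with earlier results of these data known. Of 76 tested genes in 7 lists, 55 had a log2 fold change below 0 and 21 above, with a median of -0.26 beside 0.01 for all genes. At an adjusted p under 0.05, 0 of the 76 passed edgeR's quasi-likelihood test, and 17 had an unadjusted p under 0.05, as did 13.7% of all genes. By the looser rule 6 were lower, beside 2.3% of all genes, and 0 higher. Groups did not overlap for 13 genes that were lower, the 6 among them, beside 7.38% of all genes. They did not overlap for 1 gene that was higher, beside 866 of all 13462 genes tested.

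Among 10 further transcription factors of B-cells, all 10 had a log2 fold change below 0, with a median of -0.66, and 2 were lower by the looser rule. In 5 of the 10 all ORP4L KI libraries lay below all WT libraries, beside 7.38% of all genes. An unadjusted p under 0.05 in edgeR's quasi-likelihood test was found for 5, beside 13.7% of all genes. Spib encodes an ETS factor of B-cells and plasmacytoid dendritic cells. It stood at 69.6, 60.0 and 40.7 CPM in WT and at 28.5, 17.7, 27.9 and 16.5 CPM in ORP4L KI, with a log2 fold change of -1.32 (SE 0.27, adjusted p 0.0708 in edgeR's quasi-likelihood test). Irf8 encodes a factor of B-cells, dendritic cells and monocytes. It stood at 375, 428 and 252 CPM in WT and at 108, 129, 199 and 137 CPM in ORP4L KI, with a log2 fold change of -1.30 (SE 0.27, adjusted p 0.0708 in the same edgeR test). Both were lower in all 4 ORP4L KI libraries than in any WT library, as the dendritic cell markers were, and the part of those cells in the difference was not tested. Siglech, a marker of plasmacytoid dendritic cells, stood at 80.9 to 144 CPM in WT and at 16.4 to 31.4 CPM in ORP4L KI. The most abundant of the other factors, Ikzf3, Tcf3 and Foxo1, are also T-cell genes and had log2 fold changes of -0.13, -0.29 and -0.07.

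Of 16 further surface proteins of B-cells, 11 had a log2 fold change below 0 and 5 above, with a median of -0.46, and Cd180, a Toll-like receptor relative of B-cells and myeloid cells, was lower by the looser rule. Cd180 stood at 38.1, 36.8 and 33.0 CPM in WT and at 11.3, 14.7, 24.2 and 11.3 CPM in ORP4L KI, with a log2 fold change of -1.23 (SE 0.28, adjusted p 0.0965 in edgeR's quasi-likelihood test). The groups did not overlap. The most abundant members of this list were Cd24a, Cd37, Fcmr and Cd72. Cd24a, which granulocytes also express, had a log2 fold change of 1.11 (adjusted p 0.305 in edgeR's quasi-likelihood test) and its highest value, 916 CPM, in ORP4L KI replicate 1, the library richest in granulocyte markers, and the part of those cells was not tested. Without that library the log2 fold change of Cd24a was 0.67. Cd37, Fcmr and Cd72 had log2 fold changes of 0.17, -0.44 and 0.04.

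None of 16 genes of B-cell receptor signaling passed the looser rule, with 11 below 0, 5 above and a median log2 fold change of -0.17. The most abundant, the kinase Syk, the phosphatases Ptpn6 and Inpp5d and the adaptor protease Malt1, had log2 fold changes of -0.46, -0.10, -0.26 and 0.16. In the CD40 pathway, 9 of 11 genes were below 0 and 2 above, with a median of -0.14, and none passed. Cd40lg, the ligand that T-cells carry, had a log2 fold change of -0.52 (adjusted p 0.612 in edgeR's quasi-likelihood test), and the adaptors Traf1, Birc2 and Birc3 and the NF-κB subunit Nfkb2 had -0.57, 0.23, -0.08 and -0.14. Map3k14, the kinase of the noncanonical NF-κB route, lay just outside the looser rule, with a log2 fold change of -1.02 and an adjusted p of 0.214 in edgeR's quasi-likelihood test, and had groups that did not overlap.

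Most genes of early B-cell stages were at or near the floor of 3 counts. Of 8 precursor B-cell genes, Igll1, Vpreb1, Vpreb2, Rag1 and Rag2 did not pass the filter for low counts, with 0 to 4 counts in 6 libraries. ORP4L KI replicate 1 had 19 counts of Vpreb1 (1.16 CPM) and 9 each of Igll1 and Rag1, and without it the group means of the 5 genes were 0.131 CPM or lower. The 3 that passed were Dntt, Cd93 and Il7r. Dntt, which encodes the enzyme that adds bases at antigen receptor joints in lymphoid precursors, stood at 7.58, 8.68 and 4.85 CPM in WT and at 4.57, 2.79, 2.47 and 2.86 CPM in ORP4L KI. It was lower by the looser rule, with a log2 fold change of -1.15 (SE 0.33, adjusted p 0.147 in edgeR's quasi-likelihood test). That call was lost with T-cell marker scaling and with the replicate block. The call was lost too without WT replicate 1 or 2 and without ORP4L KI replicate 2, 3 or 4. With 1 library left out the log2 fold change of Dntt lay between -1.38 and -0.97. Cd93 and Il7r, neither particular to B-cells, had log2 fold changes of 0.08 and -0.06.

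Of 12 genes of marginal zone, B-1 and germinal center B-cells, 8 were below 0 and 4 above, with a median log2 fold change of -0.37, and 2 were lower by the looser rule. Rgs13, a regulator of G-protein signaling in germinal center B-cells, stood at 3.04, 3.14 and 2.53 CPM in WT and at 0, 0.0548, 0.172 and 0.435 CPM in ORP4L KI, which were 0, 1, 3 and 7 counts. Its adjusted p was 0.0603 in edgeR's quasi-likelihood test, and its fitted log2 fold change, -4.10, depends on the prior count at such low counts. The most abundant genes of this list, Dtx1, Cd9, Cd1d1 and Zbtb32, are not restricted to these cells and had log2 fold changes of -0.89, 0.58, -0.48 and 0.31.

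Of 8 tested plasma cell genes, 4 were below 0 and 4 above, with a median log2 fold change of -0.09, and none passed in the fit of all 7 libraries. Jchain, which encodes the chain that joins antibody units, stood at 390, 291 and 155 CPM in WT and at 332, 126, 146 and 132 CPM in ORP4L KI. ORP4L KI replicate 1 lay among the WT libraries and the other 3 ORP4L KI libraries below all of them. The log2 fold change of Jchain was -0.60 (adjusted p 0.608 in edgeR's quasi-likelihood test), and without ORP4L KI replicate 1 it was -1.05 (adjusted p 0.157 in the same edgeR test), which passed the looser rule. Xbp1, Irf4 and Creld2, which other cell types also express, had log2 fold changes of 0.35, -0.20 and 0.02. Immunoglobulin chain genes were not analysed here.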

How the data were processed

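RNA sequencing libraries of T-cells from 3 WT and 4 ORP4L KI mice were placed in 2 groups by the genotype in their labels. The authors extracted RNA with Trizol, built mRNA libraries, sequenced them on a NovaSeq, trimmed adapters, dropped reads under 17 nt and mapped the rest to mouse mRNA references with FANSe3. Splice variants were merged and the read count of each gene was deposited without normalization. The authors also deposited RPKM values, which were used only to order genes by level. The submitters' processing notes name mm10. Strand, reference version and the treatment of reads that match several genes are not given in the sources used here, so counts of overlapping genes and close relatives are uncertain.

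Counts were filtered with filterByExpr (10 counts, 15 in total), scaled by TMM and tested with edgeR 4.0.16 in R 4.3.3 by the quasi-likelihood test without covariates, over all 13462 genes with Benjamini-Hochberg adjustment. The looser rule, p under 0.01 and a log2 fold change over 1 in size, follows the lines of the study's volcano plot. P-values measure the spread between the mice sampled, and counts cover counting error only. No 2 libraries of the same group agreed within sampling noise. The alternatives were DESeq2 1.42.0's size factors and Wald test, other scalings, filters and tests, a replicate block and each library left out. The 9 genes and all gene lists were chosen with earlier results of these data known. Of each other list, the text names the genes called, the 4 with the highest mean log2 CPM and, outside that rule and after their values were seen, Cd40lg, Map3k14, Siglech, Cd3e, Cd4, Cd8a and the genes under the filter. Of the genes this rule covers, 2 are counted but not reported here. Promoters came from RefSeq (GRCm38.p6) and exons from GENCODE vM21. Python 3.11.15 with Matplotlib 3.10.9, pandas 2.3.3 and SciPy 1.17.1 served for tables and figures.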

Additional observations from a re-analysis of the deposited data

Results flagged for a closer look

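In the 4 ORP4L KI libraries, 80 quantities were examined for a library far from the other 3, and 10 stood out. Chance would mark about 1 in 20, or 4, if the quantities were independent. They were not, because many share the same counts, as the Pax5 ratios and the Pax5 share do. The ratios were also chosen with earlier results of these data known. The 10 therefore describe single libraries and cannot be set against chance. In ORP4L KI replicate 1, Pax5 counts were 258 per 100 Cd22 counts, against 39.5 to 53.1 in the others, and 802 per 100 Ebf1 counts, against 381 to 416. Pax5 made up 23.9% of the summed counts of the 9 B-cell genes there, against 11.3% to 13.1%, and Vpreb3 made up 0.946%, against 0.421% to 0.488%. The same library stood out for Traf1, an adaptor of CD40, at 64.5 CPM against 180 to 182, for the phosphatase Inpp5d at 166 CPM against 212 to 219, and for the plasma cell gene Jchain at 332 CPM against 126 to 146. Genes of marginal zone, B-1 and germinal center B-cells took 0.0387% of its counts, against 0.046% to 0.0469%. In ORP4L KI replicate 4, Blk counts were 95.5 per 100 Ms4a1 counts, against 73.1 to 76.4. In ORP4L KI replicate 3, stromal cell markers took 0.00593% of the counts, against 0.000788% to 0.00137%.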

How the results depend on the processing

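Cd40 had a log2 fold change below 0 in all 16 alternatives, from -1.44 to -0.98, and an adjusted p from 0.030 to 0.883, so its direction did not depend on the settings tried while its call did. It was called by the looser rule in 9 of the 16. The call was lost with T-cell marker scaling (-1.10, adjusted p 0.883 in edgeR's quasi-likelihood test), where 0 of the 9 genes passed the looser rule, and with the replicate block (-1.21, adjusted p 0.397 in the same edgeR test), where 0 passed too. Leaving out 1 library gave 0 to 1 of the 9 genes by that rule and 0 at an adjusted p under 0.05. With DESeq2's Wald test or edgeR's likelihood ratio test 1 of the 9, Cd40, passed at an adjusted p under 0.05.

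With T-cell marker scaling the log2 fold change turned positive for Pax5 (0.35), Cd79a (0.17), Ebf1 (0.10) and Cd79b (0.03). That scaling moved the median of all genes by 0.13 and total counts alone by -0.14, and with them the median of the 9 genes was -0.04 and -0.47. With total counts alone 275 genes were higher and 407 lower by the looser rule, against 320 and 310 with TMM. Without WT replicate 1, Pax5 (0.01), Cd79a (0.15) and Cd22 (0.10) were above 0. Without WT replicate 2, Cd79a (0.008) was. Without ORP4L KI replicate 1, Cd22 (0.14) was. Without ORP4L KI replicate 2, Pax5 (0.15), Cd79a (0.18), Ebf1 (0.036) and Cd22 (0.017) were, and without replicate 4, Pax5 (0.10). With 1 library left out the lowest values of these 4 genes were -0.60 for Pax5, -0.35 for Cd79a, -0.46 for Ebf1 and -0.41 for Cd22. The median of the 9 genes lay between -0.57 and -0.05 with 1 library left out. The cause of these changes was not tested.

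Over all genes, the number called at an adjusted p under 0.05 went from 3 to 44 with upper-quartile scaling, 1 with T-cell marker scaling, 113 with total counts alone, 0 with at least 10 counts in every library (1549 at an unadjusted p under 0.05), 176 without a filter, 706 with the likelihood ratio test, 784 with DESeq2's Wald test and 48 with the replicate block. It lay between 0 and 342 with 1 library left out (1260 to 2194 at an unadjusted p under 0.05). By the looser rule, 630 genes became 291 with T-cell marker scaling and 328 to 805 with 1 library left out. Of the 76 other B-lineage genes, the 0 at an adjusted p under 0.05 became 4 without a filter, 3 with total counts alone, 7 with the likelihood ratio test, 7 with DESeq2's Wald test and 1 with the replicate block, and 0 to 2 with 1 library left out. By the looser rule their 6 became 2 with T-cell marker scaling, 10 with DESeq2's Wald test and 5 to 10 with 1 library left out.

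Same-numbered mice of the 2 groups had deviations that correlated at 0.15, -0.53 and -0.002, and not every library correlated best with its own number, so the numbers were not taken to pair the mice. The block fit left out ORP4L KI replicate 4, which has no partner. With 3 and 4 mice whose B-cell transcripts differ up to 5-fold within a group, the 95% intervals of 8 of the 9 genes cover both directions, and counts of 16 to 101 limit Vpreb3.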
